A study of Mus musculus with 5 samples.

Results

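The 85 cytosolic ribosomal protein genes were followed through the cells of 5 single-cell libraries from mouse spleen. They were chosen by symbol: every gene named Rpl or Rps with a number, Rplp0 to Rplp2 and Rpsa, without the S6 kinases, Rps19bp1 and rows named as pseudogenes. This gave 85 of the 32285 genes in the count tables, 52 of the large subunit and 33 of the small subunit, and 16 further rows that fit the pattern were left out as pseudogene, kinase or binding-protein names. Rps4l is not among the rows used here.

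C57/BL6 mice had received an intravenous infusion 48 h before the spleens were taken, and the study asked which transcriptional changes alloantigen brings about in dendritic cells (DCs). The live allogeneic group received live splenic cells from Balbc donors, and the live isogeneic group received live cells from B6 donors. The apoptotic allogeneic and apoptotic isogeneic groups received apoptotic cells from the same pair of donor strains, and the control group received saline. Every group shared the same preparation: collagenase D and DNAse I digestion, separate magnetic enrichments for CD45+ cells and with a pan DC selection, and equal mixing of both fractions, so cell numbers do not give spleen composition. Each group is 1 library of the 10x Genomics 3′ v3.1 kit, how many mice stand behind a library is not stated, and a difference between treatments therefore has no replicate check.

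Ribosomal proteins form the small and the large subunit of the ribosome together with the ribosomal RNAs, and growing and proliferating cells are known for making many of them. Their mRNAs start with a C followed by a run of pyrimidines, and this 5′ terminal oligopyrimidine (TOP) feature places their translation under the control of mTOR and Larp1. In the spleen, resting lymphocytes are small cells with few mRNAs, while dendritic cells, macrophages and plasma cells are larger and hold many more.

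Cells had to hold 1000 or more UMIs (unique molecular identifiers, 1 per captured mRNA) from 500 or more genes, with mitochondrial genes taking no more than 10%. With these limits 1185 cells remained in the library of the live allogeneic group, 3680 in that of the live isogeneic group, 2114 and 6263 in the apoptotic allogeneic and isogeneic ones, and 2894 in the saline library. Values of all 5 libraries are given in that order below. Median UMIs per cell were 4974, 3880, 4465.5, 2267 and 3420.5, and no pair of libraries shared more than 8 cell barcodes. Cells were grouped into 30 clusters without using the 85 genes, and the clusters were named as B-like, T-like and so on from marker lists. A marker counted for a cluster if it lay at least 1 log2 unit above all other cells and was found in at least 10% of the cluster's cells. By this rule 12 of 12 markers counted in the macrophage-like cells, 12 of 12 in the NK-like cells and 11 of 12 in the pDC-like (plasmacytoid DC) cells. Fewer did in others, with 9 of 11 in the erythroid-like cells and 7 to 12 of 14 in the clusters of B-like cells. In the clusters of cDC2-like (type 2 conventional DC) cells only 4 to 9 of 14 did. The live isogeneic library stood apart in Gm42418, a gene that overlaps ribosomal RNA, which took 83319 CPM (UMIs of a gene per 1000000 UMIs) in its B-like cells against 19935 CPM in the saline B-like cells. The apoptotic allogeneic file held only barcodes with at least 500 UMIs.

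The sequences at the start of these genes are shown for members on which the later results turn. Each line gives 25 bases before and 25 bases from the annotated start in RefSeq's table for GRCm38.p6, and capitals mark the longest run of a C followed by at least 7 pyrimidines on the gene's own strand, or the first of runs of equal length. Rps27l holds another run of the same length, left unmarked. Rps19 and Rps27l have further annotated starts, and the first is shown.

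Rpl12, chr2:32961687-32961736, plus strand: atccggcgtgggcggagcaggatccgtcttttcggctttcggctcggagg
Rpl22l1, chr3:28805483-28805532, plus strand: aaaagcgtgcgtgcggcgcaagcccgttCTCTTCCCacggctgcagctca
Rpl31, chr1:39367826-39367875, plus strand: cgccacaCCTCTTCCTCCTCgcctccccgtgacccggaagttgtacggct
Rpl36al, chr12:69184043-69184092, minus strand: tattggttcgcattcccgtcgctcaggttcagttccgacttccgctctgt
Rpl28, chr7:4792940-4792989, plus strand: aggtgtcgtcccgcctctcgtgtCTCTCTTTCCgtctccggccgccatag
Rps19, chr7:24884567-24884616, plus strand: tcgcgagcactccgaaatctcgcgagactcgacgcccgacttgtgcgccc
Rps27, chr3:90213624-90213673, minus strand: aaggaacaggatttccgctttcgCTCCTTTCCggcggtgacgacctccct
Rps27rt, chr9:114982715-114982764, minus strand: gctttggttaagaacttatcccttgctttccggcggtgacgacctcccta
Rps27l, chr9:66946061-66946110, plus strand: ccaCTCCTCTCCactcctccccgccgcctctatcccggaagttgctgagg

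Rpl12 and Rpl36al have such a run outside these 50 bases, and Rps19 and Rps27rt have none near the start. Rps27 and Rps27rt, a near-identical copy, share a stretch of 24 bases in these windows, and reads of the copies may not be told apart. Such a run began within 40 bases of the start in 49 of the 65 member genes that the table holds (75.4%), against 7529 of all 27025 genes (27.9%). In the whole windows of 300 bases and on both strands, CCGGAAG, which holds the core bound by ETS factors, was present in 26 members (40%) and in 9.93% of all genes. AAGATGGC was present in 6 members (9.23%) and in 3.19% of all genes. The motifs were searched independently, so 1 window may hold several of them, and their matches may overlap. A match describes the letters of the window and is no measured binding site.

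The members held 23657438 of 85921447 UMIs in the 16136 cells kept, or 27.5%. The level of single members spanned a wide range: 76 of the 85 had over 100000 UMIs, and the top 10 held 21.8% of all member UMIs. Rplp1, a stalk protein that recruits elongation factors, led with 576479 UMIs, and Rps24 with 572151, Rps12 with 531454 and Rpl13 with 530506 UMIs were also near the top. At the other end stood the copies of other members: Rpl22l1 had 53439, Rps27l 26873, Rps27rt 12291 and Rpl7l1 5775 UMIs. Rpl39l had 127, Rpl3l 42 and Rpl10l 0 UMIs. These are the copies known from testis (Rpl39l, Rpl10l) and striated muscle (Rpl3l), and with them 3 of the 85 members fell under the minimum for testing, which left 82. UMI counts of a 3′ kit were not scaled by length, so these are shares of captured molecules, and capture may differ between members. Reads shared with processed pseudogenes were assigned by rules that are not stated. Among the rows left out, Rpl10-ps3 had the most UMIs, at 7891.

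T-like cells gave the largest share of their UMIs to ribosomal proteins and macrophage-like cells the smallest among the 8 classes with enough cells in every library. The share was 35.5% ± 3.80 in T-like cells (SD, n = 5 libraries), with 37.4%, 29.2%, 37.5%, 38.6% and 34.6% in the 5 libraries. B-like cells had 33.7%, 24.2%, 30.2%, 31.0% and 27.7%. In each library the T-like share was above the B-like share, by 6.11 ± 1.67 percentage points, and above the share of cDC2-like cells, by 10.2 ± 2.76 points. Erythroid-like cells averaged 31.6% ± 2.31 and B-like cells 29.3% ± 3.57, and their difference of 2.29 points had that sign in 4 of 5 libraries.

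The conventional DCs were close to each other. cDC1-like (type 1) cells had 23.7%, 24.4%, 26.3%, 27.4% and 25%, and cDC2-like cells 23.4%, 22.8%, 26.8%, 27.9% and 25.3%. The cDC1-like minus cDC2-like difference was 0.095 ± 0.89 points and positive in 2 of 5 libraries, so the pair did not differ beyond its spread. Without clusters 6 and 12, described below, it was -0.469 points, and with the members allowed among the clustering genes -1.16 points. In that clustering, a cluster of 343 cells led by Cxcl9 and Cst3 matched cDC1 best but stayed unnamed. It was thus not counted among the cDC1-like cells. The cDC2-like class changed too. No cDC2-like cluster was then led by cycling genes, and a cluster of 143 cells named endothelial or stromal-like matched cDC2 next best. Summed members of cDC2-like cells then had 246375 CPM (live allogeneic) and 234458 CPM (live isogeneic), against 234017 and 228244 CPM in the main clustering. The part of each change in the difference was not tested. The pDC-like cells were lower, at 20.7%, 18.7%, 22.1%, 22.7% and 20.4%, and cDC2-like cells exceeded them by 4.35 ± 0.97 points in 5 of 5 libraries. Macrophage-like cells, at 16.6% ± 2.67, lay 4.32 points below pDC-like cells, again in 5 of 5 libraries. Macrophage-like cells also had the fewest UMIs per cell of the 8 classes. Their library medians averaged 2571, against 2781 in B-like and 3992 in T-like cells. NK-like cells varied most, with 29.7%, 18.3%, 22.3%, 25% and 20.6%, and the differences to their neighbours in the order, cDC2-like and pDC-like cells, had the same sign in 4 of 5 libraries only.

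The smaller classes extended the range at its low end, with 9.43% ± 1.51 in plasma cell-like and 8.72% ± 4.05 in neutrophil-like cells. Megakaryocyte-like cells, at 31.7% ± 2.53, stood at the level of erythroid-like cells. Free RNA carries these mRNAs too: barcodes with 1 to 100 UMIs gave 25.4%, 19.7%, 28.2% and 26.8% of their UMIs to the members in the 4 libraries that list them. The class shares lie on both sides of these values, and how far free RNA moved them was not tested.

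**Figure D1:**
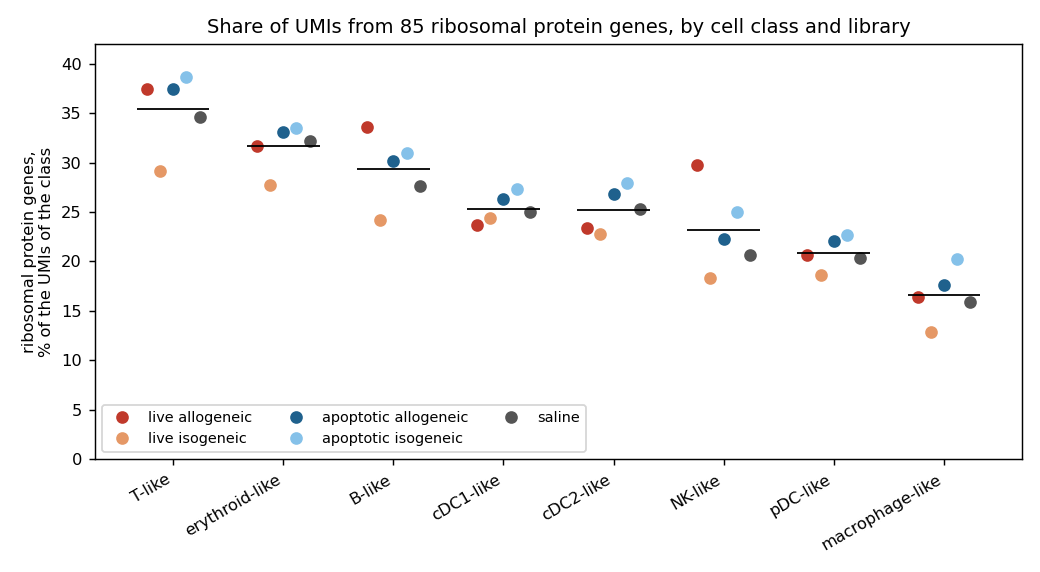
Share of all UMIs (percent, vertical axis) that came from the 85 ribosomal protein genes in each of 8 cell classes; points are the 5 libraries and lines mark the mean. T-like cells sit between 29.2% and 38.6% and macrophage-like cells between 12.9% and 20.2%, and the live isogeneic library is the lowest in every class but the cDC1-like one.

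Clusters within a class also differed. Among cDC1-like cells, cluster 6 (led by Cxcl9, Cst3 and Ifi205, 308 cells) had a share of 34.5% ± 2.33, against 25% ± 1.66 in cluster 23 (Xcr1, Rab7b) and 22.6% ± 0.874 in the cycling cluster 28. Cluster 6 also had fewer UMIs per cell, with library medians of 1864 to 3372 against 8732 to 20756 in cluster 23. Among cDC2-like cells, the 80 cells of cluster 12 had 35.8% ± 4.38 and library medians of 1354 to 2412 UMIs, against 25.4% in cluster 2 and 20.2% ± 1.31 in the cycling cluster 29.

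Lymphocyte clusters spread similarly. Among B-like cells the share was 33.3% in cluster 21 (S1pr3, Fcrl5) and 22.99% in cluster 9 (Cplx2, Vpreb3), a difference of 10.3 ± 0.87 points. Among T-like cells it was 37.8% in cluster 16 (Cd8b1) and 37.2% in cluster 22 (Cd40lg, Lef1, genes of naive and helper cells), against 27.9% in cluster 15 (Foxp3, the regulatory T cell factor). The difference of cluster 16 minus cluster 15 was 9.89 ± 2.03 points. All of these differences had the same sign in 5 of 5 libraries. Across single cells, Spearman's rho of share with UMIs per cell ranged over the libraries from 0.61 to 0.76 in NK-like, 0.25 to 0.40 in B-like and 0.19 to 0.39 in T-like cells, but from -0.48 to -0.19 in cDC1-like cells. Share and UMIs come from the same counts in these correlations. The part of depth in the cluster differences was not tested.

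The balance of the subunits also differed a little between classes. UMIs of small-subunit members per UMI of large-subunit members were 0.886 ± 0.013 in T-like cells, 0.872 in B-like cells, 0.876 in cDC2-like cells, 0.816 in NK-like cells, 0.822 in pDC-like cells and 0.791 ± 0.0145 in erythroid-like cells. The T-like ratio exceeded that of NK-like cells by 0.070, of pDC-like cells by 0.064 and of erythroid-like cells by 0.095 on average, in each case in 5 of 5 libraries.

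Relative to all their mRNA, T-like cells had higher levels of most members than cDC2-like cells. Classes were compared member by member with edgeR's quasi-likelihood test on UMIs summed per class and library, with the library as a block and p-values adjusted by Benjamini and Hochberg's method over 11340 genes. At an adjusted p of at most 0.05, 72 of the 82 members were higher and 2 lower, where 26.3% of all genes were called higher and 32.1% lower. The median log2 fold change was 0.50 over the members and 0.55 above the median of all genes. The p-values measure the spread between these libraries, which also differ in treatment, and the other genes helped to define the classes, so the share of all genes called is a description.

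Rpl12, a protein at the base of the stalk where translation factors bind, stood out. It had 6313, 5532, 6373, 7331 and 7213 CPM in T-like cells, against 2337, 2386, 2512, 2875 and 2849 CPM in cDC2-like cells. Every T-like value was above every cDC2-like value, and the log2 fold change was 1.36 ± 0.11 (SE, n = 5 libraries; adjusted p = 1.3e-14 in edgeR's test). Rplp1 of the same stalk had 9582, 7571, 10209, 10683 and 9106 CPM, against 4549.5, 4706, 5511, 6199 and 5279 CPM, also without overlap, and a log2 fold change of 0.87 ± 0.10 (adjusted p = 1.2e-09). Its partner Rplp2 rose by 0.55 and the anchor Rplp0 by 0.49 on the log2 scale (adjusted p = 0.0018 for Rplp0).

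Rpl5 and Rpl11, which with a small ribosomal RNA form a particle that can bind the p53 regulator Mdm2, were both called higher but not to the same degree. Rpl5 had 2532 to 3116 CPM in T-like cells and 1299 to 1794 CPM in cDC2-like cells, with a log2 fold change of 0.85 ± 0.11 (adjusted p = 4e-09). Rpl11 rose by 0.33, and in the fit without the apoptotic isogeneic library, at 0.26, it was not called. Rpl13a, in human myeloid cells a member of the complex that silences inflammatory mRNAs, had 4963, 4694, 5243, 5611 and 6092 CPM, against 2519, 2775, 2948, 3111 and 3447 CPM, without overlap, a log2 fold change of 0.87 ± 0.09 (adjusted p = 1.2e-11). Among small-subunit members, Rps27 rose by 0.84, Rps3, which sits at the mRNA entry, by 0.71, Rpsa, also known as the laminin receptor, by 0.69, and Rps6, the target of S6 kinases, by 0.41 (log2).

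Rps27l, a copy of Rps27 that p53 activates, ran the other way. It had 103, 90.2, 101, 92.9 and 87.3 CPM in T-like cells, against 329.5, 227, 212, 212 and 186 CPM in cDC2-like cells, with a log2 fold change of -1.25 ± 0.14 (adjusted p = 1.4e-10 in edgeR's test). The groups did not overlap, and Rpl7l1, a copy of Rpl7, was the other member called lower, at -0.55 ± 0.12 (adjusted p = 7.6e-05). Rps27a, which is made as a fusion with ubiquitin, had a log2 fold change of -0.01, Rpl10, one of the last proteins to join the large subunit, -0.09, and Rpl36al 0.11, and none of these was called.

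B-like cells shared this direction at a smaller size: 44 members were called higher than in cDC2-like cells and 3 lower, where 26.9% and 32.6% of all genes were called, and the median log2 fold change was 0.26. In the fit without the apoptotic isogeneic library 29 were called higher, and in that without the live allogeneic library 10 were called lower, while without the live isogeneic, the apoptotic allogeneic or the saline library 1 was. Rpl12 had 4853, 3793, 4269, 4811 and 4625 CPM in B-like cells, against 2337 to 2875 CPM in cDC2-like cells, a log2 fold change of 0.83 ± 0.11 (adjusted p = 9.7e-09). The next members by fold were Rps27rt at 0.76 ± 0.12, Rps20 at 0.72 ± 0.12, Rps27 at 0.69 ± 0.09 and Rpl22l1 at 0.65 ± 0.12. Rps27l was again the lowest, with 84.4, 96.0, 97.1, 109 and 87.4 CPM in B-like cells and a log2 fold change of -1.22 ± 0.13 (adjusted p = 5.9e-11). Rps27a was also called lower (-0.32 ± 0.10). It was not called in the fits without the live isogeneic, the apoptotic allogeneic or the saline library, and its log2 fold change ranged from -0.42 to -0.26 over the 5 fits that left out a library.

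Set directly against T-like cells, B-like cells were lower in 41 members and higher in 1, where 19.5% of all genes were called lower and 20.4% higher. The count of lower members was 18 without the apoptotic isogeneic and 27 without the saline library, and the median log2 fold change was -0.24. Rpl5 had 1835, 1647, 1573, 1549.9 and 1727 CPM in B-like cells, against 2532, 2808, 2892, 2821 and 3116 CPM in T-like cells. Those ranges do not overlap, and the log2 fold change was -0.75 ± 0.11 (adjusted p = 1.3e-07 in edgeR's test). Rplp0 had 3227, 2029.6, 2672, 2565 and 2577 CPM in B-like cells, against 4765, 3255, 4322, 4333 and 4272 CPM in T-like cells, and fell by 0.67 on the log2 scale; here the highest B-like value lay below the lowest T-like value by little. Rps6 (-0.57 ± 0.11), Rpl23a (-0.57 ± 0.10), Rpl12 (-0.53 ± 0.11) and Rps23 (-0.53) followed. Rpl7l1 was the 1 member higher in B-like cells, with 64.4, 67.6, 56.4, 56.8 and 63.7 CPM, against 45.9, 41.4, 37.2, 40.3 and 53.8 CPM in T-like cells (0.52 ± 0.11, adjusted p = 0.00019).

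In pDC-like cells, the class known for interferon secretion, nearly all members were lower than in cDC2-like cells, with 1 large exception. Of the 82 members 74 were called lower and 2 higher, where 30.8% of all genes were called lower and 16.6% higher, and the median log2 fold change was -0.50. Scaling by total UMIs alone moved the member median to -0.26 and the median of all genes to 0.02, and the members lay 0.28 to 0.32 below all genes under each of 4 scalings. Rps19, the member most often mutated in human Diamond-Blackfan anaemia, had 2050.0, 1969, 2311, 2619 and 2257 CPM in pDC-like cells, against 4224, 4183, 4707, 5155 and 4713 CPM in cDC2-like cells. The ranges do not overlap, and the log2 fold change of -1.28 ± 0.12 (adjusted p = 4.2e-12 in edgeR's test) was the lowest of all members. Rps27a followed with 2871 to 3984 CPM, against 5022 to 7147 CPM (-1.05 ± 0.11), then Rps15 (-0.91 ± 0.10), Rpl22, which T cell development in mice needs (-0.89 ± 0.10), and Rps7 (-0.85 ± 0.10). Rpsa fell by 0.80 and Rplp2 by 0.79.

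Rpl31, a protein of the large subunit near the exit of the nascent-chain tunnel, was the exception. It had 2702, 2462, 2896, 2968 and 2785 CPM in pDC-like cells, against 872, 761, 893, 825 and 796 CPM in cDC2-like cells, about the same in every library of each class. The log2 fold change was 1.49 ± 0.11 (adjusted p = 1.2e-15 in edgeR's test), the largest of any member in any of the 5 contrasts. Erythroid-like cells came next, with 1884, 1784, 2154, 2017 and 1891 CPM, and T-like cells had 1137 to 1377 CPM. Rpl31 (chr1:39367842-39371911, plus strand, GRCm38) overlaps Tbc1d8 on the other strand, and whether the counting used strand is not stated. Rpl36al was the other member called higher, at 0.41 ± 0.09 (adjusted p = 0.00028). Rpl10 (0.14) and Rpl22l1 (-0.09) were not called.

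Between the conventional DCs, cDC1-like cells had 35 members higher and 0 lower than cDC2-like cells by edgeR's test, where 20.3% and 22% of all genes were called. At an unadjusted p of at most 0.05, 2 members (Rps9, Rps27) were lower, and DESeq2 called 32 higher and 2 lower. The direction depended on the scaling, since with total UMIs alone 19 were higher and 11 lower, and the member median moved to -0.02, against 0.21, while the median of all genes moved to -0.27. Relative to all genes the members stood 0.24 to 0.25 higher under each of 4 scalings, and the summed shares of both classes, given above, differed by less than their spread. Without the live allogeneic library 3 members were called lower.

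Rpl28, a protein of the large subunit, led this contrast, with 3675, 3686, 4019, 4292 and 3989.5 CPM in cDC1-like cells, against 2724, 2305, 2681, 2854 and 2663 CPM in cDC2-like cells. No value overlapped, and the log2 fold change was 0.81 ± 0.12 (adjusted p = 2.1e-07 in edgeR's test). Rpl28 overlaps Ube2s on the other strand. Rpl36al followed at 0.73 ± 0.09, Rps27l at 0.66 ± 0.13, Rpl14 at 0.64 ± 0.11 and Rps2, which lines the mRNA channel, at 0.61 ± 0.14. Rps2 had 3473, 2932, 3168, 3425 and 3440.3 CPM in cDC1-like cells, against 2628, 2186, 2484, 2623 and 2655 CPM in cDC2-like cells, again without overlap. These 5 members were called under every alternative scaling and in every fit that left out a library. Rplp0 (0.52), Rplp1 (0.50) and Rpl10 (0.49) were also higher.

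**Figure D2:**
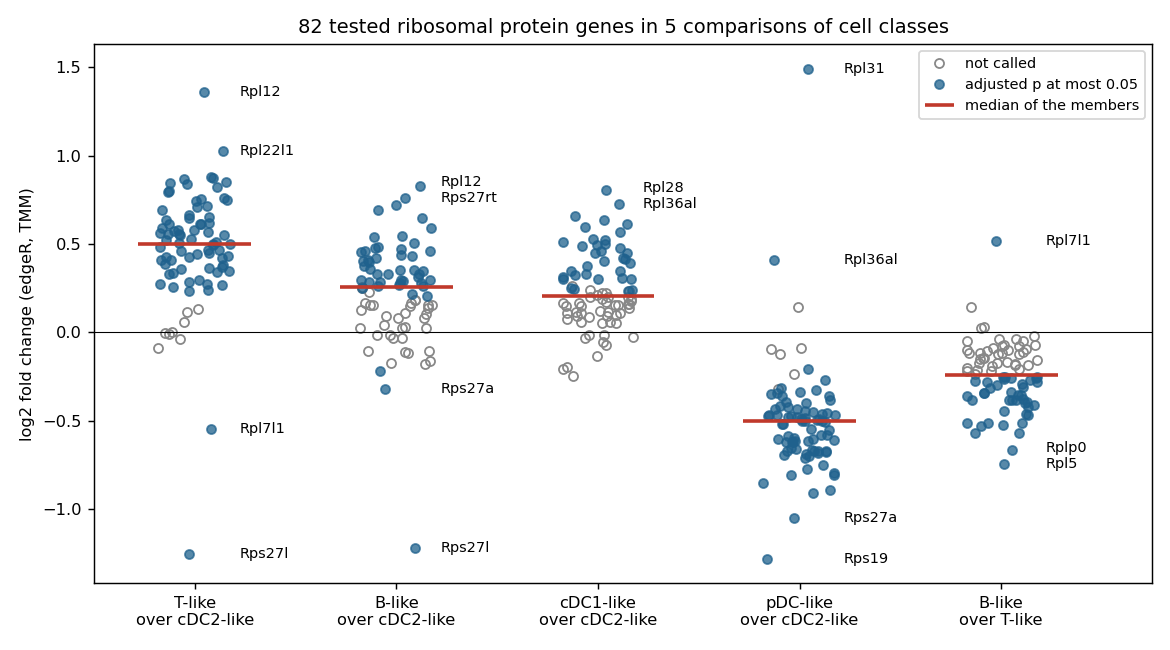
Log2 fold change of each of the 82 members (points; 1 column per class contrast, edgeR with TMM scaling), with members called at an adjusted p of at most 0.05 filled and the others open; lines mark the medians. T-like over cDC2-like lies mostly above 0 (median 0.50), pDC-like over cDC2-like mostly below 0 (median -0.50) with Rpl31 alone at 1.49.

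Copies of 1 ribosomal protein were used in different proportions. Rpl22l1 had 41.9 ± 4.53 UMIs per 100 of Rpl22 in T-like cells (SD, n = 5 libraries), 34.4 ± 3.11 in B-like cells, 45.9 ± 6.56 in pDC-like cells, 26.2 ± 2.84 in cDC2-like cells and 23.6 ± 4.65 in cDC1-like cells. In CPM, Rpl22l1 had 938, 683, 875, 959 and 674 in T-like cells, against 485, 397, 399.6, 413 and 351 in cDC2-like cells, without overlap (1.03 ± 0.12 on the log2 scale, adjusted p = 6.7e-10). Rps27l had 40.7 ± 5.48 UMIs per 100 of Rps27 in erythroid-like cells, 12.6 ± 2.62 in cDC1-like cells, 7.02 ± 2.18 in cDC2-like cells, 1.82 ± 0.44 in B-like cells and 1.60 ± 0.24 in T-like cells. The erythroid-like level of Rps27l, 813, 801, 843, 836 and 671 CPM, was the highest of the 8 classes.

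Rpl36al exceeded its partner Rpl36a in the type 1 and plasmacytoid DCs, with 145 ± 25.1 UMIs per 100 in pDC-like and 112 ± 11.03 in cDC1-like cells, and stayed below it in cDC2-like (76.0 ± 10.2), B-like (49.3 ± 7.93) and T-like cells (44.4 ± 5.97). Rpl36al had 1478, 1182, 1273, 1585 and 1338 CPM in pDC-like cells, against 974, 721, 889, 988 and 809 CPM in cDC2-like cells, and Rpl36a had 1676 to 2504 CPM in T-like cells, against 933 to 1335 CPM in cDC2-like cells. Rps27rt averaged 3.55 to 4.18 UMIs per 100 of Rps27 in the 8 classes, with single libraries from 2.26 to 8.22 and from 3.01 to 6.17 within B-like cells. Rpl7l1 had 1.58 ± 0.212 per 100 of Rpl7 in T-like and 4.15 ± 1.00 in macrophage-like cells, and Rpl39l averaged at most 0.06 per 100 of Rpl39 in a class, with up to 0.24 in single libraries.

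**Figure D3:**
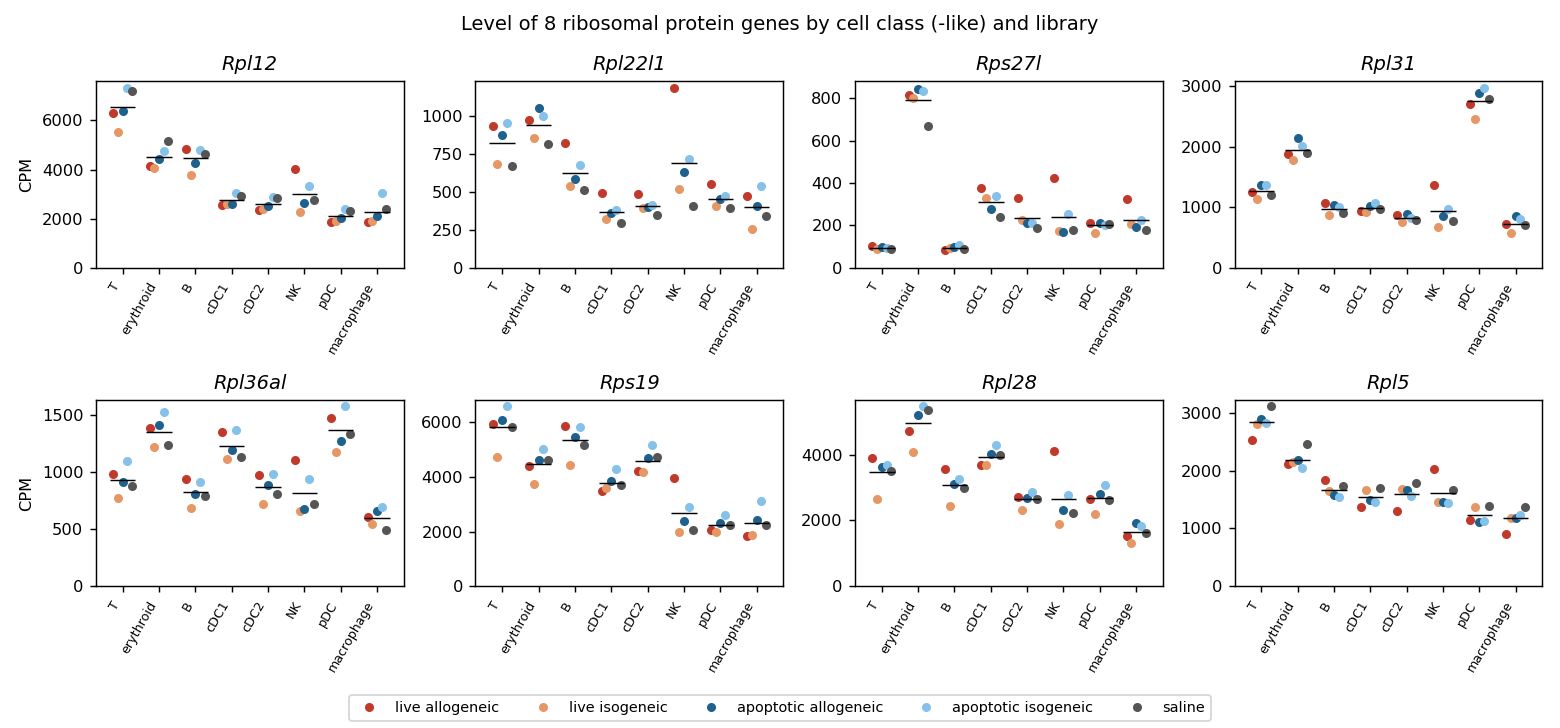
CPM (vertical axis, from 0) of 8 members in 8 cell classes, 1 point per library, with lines at the mean. Rpl31 is highest in pDC-like cells (2462 to 2968 CPM), Rpl12 in T-like cells (5532 to 7331 CPM) and Rps27l in erythroid-like cells (671 to 843 CPM).

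Members with and without the pyrimidine run had similar medians in these contrasts. Of the tested members in RefSeq's table, 47 had the run and 15 did not, and their median log2 fold changes were 0.47 and 0.51 for T-like over cDC2-like cells, 0.28 and 0.26 for B-like over cDC2-like cells, -0.52 and -0.51 for pDC-like over cDC2-like cells, 0.20 and 0.19 for cDC1-like over cDC2-like cells and, with the widest gap, -0.18 and -0.26 for B-like over T-like cells. The run is defined on annotated starts, and 15 members are few, so a small difference would not be seen.

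Other genes of the pathway were read from lists. Of all genes, 26.3% were called higher and 32.1% lower in T-like cells, 26.9% and 32.6% in B-like cells, 16.6% and 30.8% in pDC-like cells and 20.3% and 22% in cDC1-like cells, each over cDC2-like cells, and 20.4% and 19.5% in B-like over T-like cells. Among 33 translation factors and other TOP mRNAs, 16 were higher and 4 lower in T-like than in cDC2-like cells. The higher ones included Tpt1, the elongation factors Eef1a1 and Eef1b2, and Npm1, and Nap1l1 and Eif4a1 were lower. In B-like cells 8 were higher and 7 lower, in pDC-like cells 0 and 20, in cDC1-like cells 15 and 1, and in B-like over T-like cells 1 and 10. Of 45 ribosome assembly genes, among them Ncl and Nop10, 28 were higher and 2 lower (Nhp2, Nop16) in T-like cells, 21 and 2 in B-like cells, 1 and 18 in pDC-like cells, 19 and 0 in cDC1-like cells, each over cDC2-like cells, and 2 and 4 in B-like over T-like cells.

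The mitochondrial ribosome, a separate machine with 78 genes on the list, gave these counts: 6 genes were higher and 23 lower in T-like cells, 7 and 23 in B-like cells, 4 and 20 in pDC-like cells and 32 and 1 in cDC1-like cells, each over cDC2-like cells, and 8 and 4 in B-like over T-like cells. The lower counts in T-like, B-like and pDC-like cells are close to the shares of all genes given above. Rack1 and Fau, which encode ribosomal proteins under other names, were both lower in pDC-like than in cDC2-like cells, and Rack1 was higher in T-like cells. Of 17 measured genes of translation control, 7 were higher and 6 lower in T-like over cDC2-like cells, 7 and 3 in B-like cells, 2 and 4 in pDC-like cells, 6 and 0 in cDC1-like cells, and 7 and 3 in B-like over T-like cells. The 6 lower ones in T-like cells are close to the share of all genes. The 10 ribosome quality control genes gave 2 and 0, 2 and 1, 3 and 2, 3 and 2, and 1 and 1 in the same order.

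The genes whose level ran most like the members' summed level were named by Spearman's rho over the 40 sums (8 classes in 5 libraries, so that sums share libraries), among 1341 genes with at least 100 CPM. Rack1 came first at 0.93, then Naca, a chaperone subunit at the tunnel exit, at 0.88, Npm1 at 0.81, Snrpg at 0.81 and Eef1a1 at 0.80. The most opposed were Cd44 at -0.87, Qk at -0.86 and Itm2b at -0.85. Fau reached 0.50.

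The ribosomal protein share was higher in the live allogeneic than in the live isogeneic library in NK-like, B-like, T-like and macrophage-like cells. The summed log2 ratios were 0.70, 0.47, 0.36 and 0.35 in these, against 0.04 and -0.04 in cDC2-like and cDC1-like cells. Erythroid-like and pDC-like cells lay between, at 0.19 and 0.15. Whether the classes differ in these ratios was not tested. In T-like cells the live isogeneic share, 29.2%, was the lowest of all libraries. The live allogeneic share there, 37.4%, lay near the 37.5% and 38.6% of the apoptotic libraries, with 34.6% in saline. Macrophage-like cells had 16.4% in the live allogeneic, 12.9% in the live isogeneic and 15.9% in the saline library. With 1 library per treatment there is no test of these differences. A member counts as higher or lower from 1.5-fold, on CPM with a pseudocount of 10, and 95% intervals on folds are exact conditional Poisson intervals that cover counting error only. A ratio of class sums does not separate a change in every cell from a change in the mix of cells.

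In NK-like cells 53 of 82 members were higher and 0 lower in the live allogeneic library, where 18.6% of all genes were higher and 27.4% lower, and the summed members had a log2 ratio of 0.70. Rps2 had 5709 CPM in the live allogeneic library, against 1844 CPM in the live isogeneic one, 3.10-fold higher (95% interval 2.90 to 3.31), and 2256 CPM in the saline library. Rpl41, which encodes the smallest ribosomal protein, had 8553 CPM, against 3249 CPM, 2.63-fold (2.50 to 2.77), and Rplp0 had 4722 CPM, against 1802 CPM, 2.62-fold (2.45 to 2.81). The fold was closer to 1 for others, 1.04 for Rps24, 1.00 for Rps14 and 0.957 for Rps27.

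Other values moved beside it. These were 51 live allogeneic and 142 live isogeneic NK-like cells, with median UMIs of 5615 and 3511.5, and the share rises with UMIs per cell in this class. Mki67, a marker of cycling cells, had 847 CPM in the live allogeneic NK-like cells, against 313 CPM in the live isogeneic ones, and the 14 T cell markers summed to 4625 CPM in live allogeneic, against 1986 CPM in live isogeneic cells, with 1261 to 2234 CPM in the other libraries. Gm42418 had 9281 CPM in the live allogeneic NK-like cells, against 86267 CPM in the live isogeneic ones. Without Gm42418, AY036118, Lars2, Malat1 and the mitochondrial genes in the totals the summed log2 ratio was 0.54 with 36 members higher, and with each cell thinned to 1000 UMIs it was 0.61 with 39 higher. The mix of NK-like cells differed too. At Leiden resolution 2, a cycling NK-like cluster (Gzmc, Mki67, 48 cells, median UMIs 14490.5) held 22 live allogeneic and 10 live isogeneic cells. The other NK-like cluster held 30 and 132, with median UMIs of 2610 over all libraries. The part of cycling, cluster mix, T cell markers and cell number was not tested. Among the lists, 27 of 42 ribosome assembly genes, 44 of 77 mitochondrial ribosome genes and 19 of 33 translation factors were higher in the live allogeneic NK-like cells, and 0 of these were lower.

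B-like cells had 18 members higher and 0 lower, where 2.04% of all genes were higher and 6.2% lower, and a summed log2 ratio of 0.47. Rpl41 had 6911 CPM in the live allogeneic library, against 3796 CPM in the live isogeneic one (1.82-fold, 95% interval 1.78 to 1.86). Rpl10 was 1.73-fold and Rpl35 1.67-fold higher, while Rps27l was at 0.879-fold (95% interval 0.738 to 1.04). Gm42418 had 19837 CPM in the live allogeneic B-like cells, against 83319 CPM in the live isogeneic ones, and without it and the other genes named above 10 members were higher and the summed ratio was 0.37. The count was 53 with CPM over UMIs of other genes only. Cluster 4, led by the interferon-induced Ifit3 and Rsad2, held 224 of the 486 live allogeneic B-like cells, and the summed ratio without it was also 0.47.

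T-like cells had 8 members higher and 0 lower, where 3.84% of all genes were higher and 9.69% lower, and a summed log2 ratio of 0.36. Rpl41 (1.87-fold, 1.81 to 1.93), Rpl35 (1.60-fold) and Rpl10 (1.56-fold) led, and Rpl5 was at 0.902-fold. The count was 1 without Gm42418 and the other genes named above, with a summed ratio of 0.24, 15 with cells thinned to 1000 UMIs, and 33 with CPM over UMIs of other genes. In macrophage-like cells 12 members were higher and 0 lower, where 18.1% and 16.2% of all genes were, so only the higher count was near the background. There, 78 of 82 members had a ratio above 1, and the median log2 ratio was 0.31 over the members and 0.07 over all genes. The summed ratio there was 0.35, and without the genes named above 4 members were higher and the ratio was 0.21.

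In cDC2-like cells 0 members were higher and 0 lower by this rule, where 5.49% and 3.64% of all genes were. The summed members were at 1.03-fold (95% interval 1.02 to 1.03), and 49 of 82 were above a ratio of 1. Rpl41 had 4911 CPM, against 3292 CPM (1.49-fold, 1.45 to 1.54), and Rps27l had 329.5 CPM, against 227 CPM (1.45-fold, 1.29 to 1.62). Rpl5 had 1299 CPM, against 1676 CPM (0.775-fold, 0.736 to 0.815), and Rps14 was at 0.801-fold. The sign of the sum turned without the genes named above, at a log2 ratio of -0.04, against 0.04. By cluster the log2 ratio of the share was -0.0818 in cluster 1, 0.17 in cluster 2, 0.44 in cluster 12 and 0.0681 in the cycling cluster 29. Live allogeneic cells numbered 44, 72, 9 and 23 in these clusters, against 112, 236, 43 and 39 live isogeneic cells, so the mix of clusters differed too. In cDC1-like cells the summed log2 ratio was -0.04, and Rpl22l1 was the 1 member past 1.5-fold, higher at 1.53-fold (1.38 to 1.69), with 0 lower, where 3.06% of all genes were higher and 2.86% lower. The log2 ratio of the share was 0.0929 in cluster 6 and 0.0509 in the cycling cluster 28, and only cluster 23 was below 0, at -0.0575. Live allogeneic cells numbered 27, 21 and 40 in these 3 clusters, against 127, 22 and 147 live isogeneic cells.

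The pDC-like cells had 1 member higher, Rpl41 at 1.68-fold, and 0 lower, where 6.57% and 12.6% of all genes were. The erythroid-like cells had a summed log2 ratio of 0.19 with 0 members higher and 1 lower, where 0.866% and 2.67% of all genes were. The lower one, named here after its value was seen, was Rpl39l, with 0 UMIs in the live allogeneic and 39 UMIs in the live isogeneic library. It met the minimum of UMIs for these comparisons through the live isogeneic library alone, so it could not have come out as higher. With it 83 members were measured in erythroid-like cells, against 82 in pDC-like cells. No conclusion is drawn from this call. Median UMIs per erythroid-like cell were 25900 to 43640 in the other libraries and 3605 in the live isogeneic one.

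**Figure D4:**
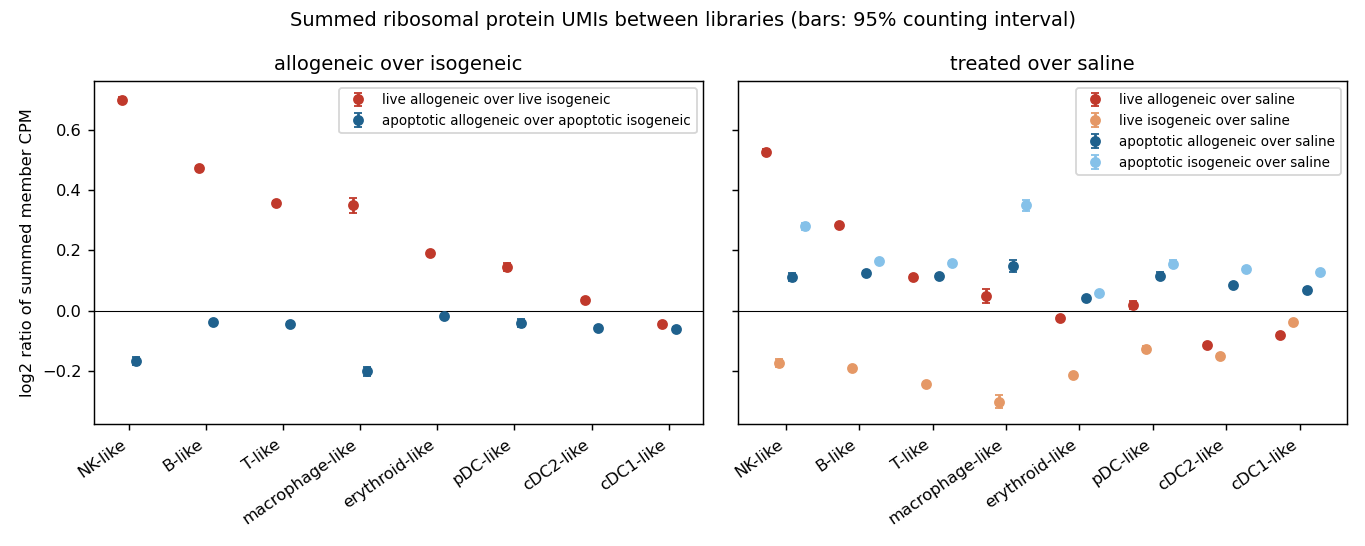
Log2 ratio of the summed CPM of the members (vertical axis) in 8 cell classes, allogeneic over isogeneic on the left and each infusion over saline on the right; bars are 95% counting intervals and each treatment is 1 library. Live allogeneic over live isogeneic runs from 0.70 in NK-like cells to 0.04 in cDC2-like and -0.04 in cDC1-like cells, while apoptotic allogeneic over apoptotic isogeneic stays between -0.20 and -0.02.

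Apoptotic allogeneic and apoptotic isogeneic libraries differed little in the sum, with log2 ratios from -0.20 in macrophage-like to -0.02 in erythroid-like cells, and -0.06 in cDC2-like cells. In cDC2-like cells 2 members were higher and 0 lower, where 1.02% of all genes were higher and 0.786% lower. Rps29, a small zinc-binding protein of the small subunit, had 7941 CPM in the apoptotic allogeneic library, against 5169.7 CPM in the apoptotic isogeneic one (1.54-fold, 95% interval 1.4999 to 1.57). Rpl35 had 1654 CPM, against 1077 CPM (1.54-fold, 1.46 to 1.62). Rps29 was the highest or the next highest member in all 8 classes, at 1.54-fold in NK-like, 1.48-fold in T-like and 1.58-fold in cDC1-like cells. Rps27rt was the lowest in cDC2-like cells, at 0.702-fold, and its reads may be shared with Rps27.

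Against the saline library, which all 4 comparisons share, the summed log2 ratio in cDC2-like cells was -0.11 for live allogeneic, -0.15 for live isogeneic, 0.08 for apoptotic allogeneic and 0.14 for apoptotic isogeneic cells. In NK-like cells the same 4 values were 0.53, -0.17, 0.11 and 0.28, and in B-like cells 0.28, -0.19, 0.13 and 0.16. In the live allogeneic NK-like cells 38 members were higher and 0 lower than in saline, where 19.3% and 28.2% of all genes were. Rpl22l1 led there, at 2.92-fold (95% interval 2.49 to 3.45). In cDC2-like cells 3 were higher and 0 lower, where 7.68% and 5.43% of all genes were, with Rps27l at 1.77-fold, Rpl39 at 1.65-fold and Rps28 at 1.53-fold.

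Differences from saline went with the coding length of the members. Of the 82 members, 45, 60, 53 and 48 lay on the same side of the median member in 8 of 8 classes, for the live allogeneic, the live isogeneic and the apoptotic allogeneic and isogeneic infusion in turn. Rpl39 (coding length 153 bases), which lines the exit tunnel, had 4143, 3141, 4113, 4030 and 2211 CPM over all cells of the 5 libraries, lowest in saline. Relative to the median member, its mean log2 ratio over the 8 classes was 0.80 in the live allogeneic, 0.71 in the live isogeneic, 0.92 in the apoptotic allogeneic and 0.58 in the apoptotic isogeneic library. Rpl10 (642 bases) was at -0.56, -0.25 and -0.53 in the last 3 of these. The classes of a library share its preparation and are not replicates.

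Over the 82 members, Spearman's rho of this ratio with coding length was -0.64, -0.57, -0.81 and -0.76 for the 4 infusions over saline. The 21 members of at most 360 bases had medians of 0.40, 0.34, 0.52 and 0.32, and the 23 of at least 600 bases had -0.09, -0.10, -0.13 and -0.11. Without the shared saline library, rho was -0.16 for live allogeneic over live isogeneic and -0.28 for apoptotic allogeneic over apoptotic isogeneic. Other genes of similar level in cDC2-like cells gave -0.44, 0.07, -0.22 and -0.45 for the 4 infusions over saline, -0.52 for live allogeneic over live isogeneic and 0.26 for apoptotic allogeneic over apoptotic isogeneic. The part of transcript length, or of a difference in library preparation, in the folds against saline was not tested, and the library and the treatment cannot be told apart.

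**Figure D5:**
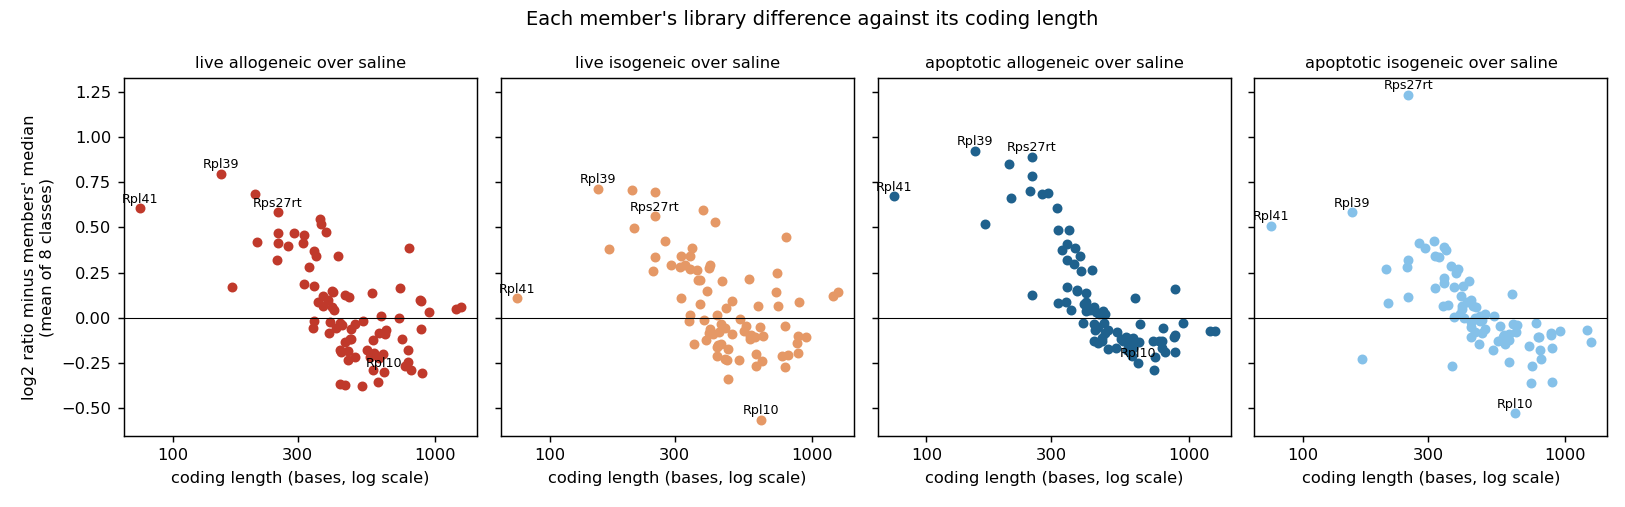
Mean log2 ratio to saline over 8 cell classes, relative to the median member (vertical axis), against coding length in bases (horizontal log axis), for the 82 members in each of the 4 infusion libraries. Most short members lie above 0 and most long members below it in all 4 panels, with rho between -0.81 and -0.57.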

How the data were processed

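Per the file headers, the deposited matrices hold raw UMI counts with no normalization. The submitters' processing notes name Cell Ranger 4.0 and the mm10 build, and whether reads were counted by strand is not stated there. The members, the gene lists and the tests were chosen with earlier results of these data known. Barcodes with 1000 or more UMIs, 500 or more genes and mitochondrial UMIs of 10% or less were kept, and doublets called by Scrublet in scanpy 1.11.5 (1, 5, 4, 117 and 8 per library) were removed. Clusters (2000 variable genes without the members, 30 principal components, 15 neighbours, Leiden resolution 1) were named from marker lists, so a class difference may depend on these rebuilt names.

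UMIs were summed per class and library for the 8 classes with at least 30 cells and 50000 UMIs in every library. Class contrasts used edgeR 4.0.16 (R 4.3.3) with TMM factors, its low-count filter, quasi-likelihood tests, a library block and Benjamini-Hochberg adjustment over all genes, with DESeq2 1.42.0 as an alternative. Since each library holds every class, sums with the same library number are paired by design. A standard error is the absolute log2 fold change divided by the square root of F. Whether libraries come from separate animals is not given, so p-values measure the spread between libraries only. The code was tested on simulated data. Treatment comparisons (1 library each) are ratios of CPM, CPM being UMIs per 1000000, with no test, over members with at least 20 UMIs.

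Members named were up to 5 of the highest and lowest called in a class contrast, up to 3 of each with at least 200 UMIs in a treatment comparison, and a list of stalk proteins, copies and members with known further roles. Gene positions came from a GRCm38 annotation matched by gene identifier, and sequences from RefSeq's table. Results for some genes are not reported here.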

Additional observations from a re-analysis of the deposited data

Results flagged for a closer look

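The summed ribosomal protein level had log2 ratios of opposite sign in different classes of the same pair of libraries. For live allogeneic over live isogeneic, the log2 ratio was 0.70 in NK-like cells and -0.0443 in cDC1-like cells. For live allogeneic over saline it was 0.53 in NK-like cells and -0.11 in cDC2-like cells. Each treatment is 1 library, so the difference between classes was not tested. Within cDC1-like cells the ratio of live allogeneic over live isogeneic was 0.0929 in cluster 6, 0.0509 in cluster 28 and -0.0575 in cluster 23, and the low-share cluster 28 held 21 live allogeneic and 22 live isogeneic cells, where cluster 6 held 27 live allogeneic and 127 live isogeneic and cluster 23 held 40 live allogeneic and 147 live isogeneic cells.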

How the results depend on the processing

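Over 28 results, 199 of 254 alternative values kept their direction and size; 51 moved and 4 reversed. Without the library as replicate block, the members called numbered 19 higher and 1 lower (B-like over cDC2-like), 18 higher (cDC1-like over cDC2-like) and 18 lower (B-like over T-like), and with 1 library left out they ranged over 29 to 44 and 1 to 10, over 24 to 52, and over 18 to 60; 1 to 2 members were then higher in B-like over T-like cells. Members lower in cDC1-like over cDC2-like cells numbered 11 by library size only, 6 with members among the variable genes, 2 without doublet removal, 2 in DESeq2 and 0 to 3 with a library left out, and 19 were higher by library size only. The share difference of cDC1-like minus cDC2-like cells was -1.16 points with members among the variable genes, 1.06 as median per cell, -0.276 to 0.259 with a library left out and -0.469 without clusters 6 and 12. With members among the variable genes, a cluster of 343 cells that matched cDC1 best stayed unnamed and left the cDC1-like class. The cDC2-like class changed too and had no cluster led by cycling genes. In cDC2-like cells, live allogeneic over live isogeneic, 5 members were higher and 1 lower with a lower minimum fold, and 1 was higher with CPM over other genes, with thinned cells or at Leiden resolution 2. The summed log2 ratio was -0.0432 without Gm42418, AY036118, Lars2, Malat1 and mitochondrial genes in the totals, 0.12 thinned, 0.0715 with members among the variable genes and 0.11 as median per cell. For apoptotic allogeneic over apoptotic isogeneic, 5 were higher and 1 lower with a lower minimum fold, 0 higher from 2-fold and 1 higher when thinned; the sum was -0.0449, -0.0763, -0.0466 and -0.0427 in the same 4 settings and -0.0474 at most 5% mitochondrial UMIs. Alternatives chosen after seeing the data gave, for live allogeneic over live isogeneic without the genes named above, sums of 0.54 (NK-like), 0.37 with 10 members higher (B-like), 0.24 with 1 (T-like) and 0.21 with 4 (macrophage-like). Thinned cells gave 0.61, 0.49, 0.38 with 15 members and, in macrophage-like cells, 20 members. CPM over other genes gave 53 members (B-like) and 33 (T-like), and B-like cells without cluster 4 gave 0.47. Among members named one by one, 1137 of 1261 class values kept direction and call, 123 lost the call and Rpl13a in pDC-like over cDC2-like cells turned to 0.035 by library size only; 474 of 576 treatment values stayed within their interval and 102 moved. The causes were not tested. No paired analysis was possible for treatments because each is 1 library. Depth limits Rpl3l, Rpl39l and Rpl10l, which were under the minimum for the class tests.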
